A study of Caenorhabditis elegans with 2 samples.

Results

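The 10 genes mig-5, dsh-1, dsh-2, bar-1, wrm-1, sys-1, pop-1, lit-1, apr-1 and pry-1 encode intracellular components of Wnt signalling in Caenorhabditis elegans. They were taken by name as a pathway, with earlier results of these data known, and all 10 were found among the 19973 nuclear protein-coding genes of the annotation. Where the zinc finger transcription factor LSY-2 binds had been mapped by chromatin immunoprecipitation and sequencing (ChIP-seq) in whole L2 larvae of mixed sex. The strain was OP240, which carries unc-119(ed3) and the integrated insertion wgIs240 of eGFP-tagged LSY-2, and the age of the larvae is recorded as unknown. The data are 1 group of 2 biological replicates that share this genotype and stage, so the design holds no contrast between conditions and no test was made. Because whole animals were used, binding in a few cells and weak binding in many cells cannot be told apart.

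Wnt signals received by Frizzled receptors act through Dishevelled proteins, here MIG-5, DSH-1 and DSH-2, on a complex that holds beta-catenin in check and contains Axin (PRY-1) and APC (APR-1). BAR-1 is the beta-catenin of the canonical branch, which acts in Q neuroblast migration and vulval fates. In the asymmetry branch, which divides seam and other cells into unlike daughters, WRM-1 and the Nemo-like kinase LIT-1 drive the TCF factor POP-1 out of the nucleus, while SYS-1 serves as its coactivator.

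Each region is described by its summit, by the authors' signal value for it, which has no unit, and by its rank when all regions of a list are sorted by signal from the highest. The list of regions that passed the authors' threshold on reproducibility (irreproducible discovery rate, IDR) holds 2182 regions with a median signal of 83.4 and a lowest of 45.8. These are the 2182 highest of a longer list of 30000 regions, peaks and background together, made from both replicates, and each replicate has a list of 30000 regions of its own. Read counts are not given, so the depth is unknown, and the signal is not on the same scale in the replicates: in the 2154 thresholded regions where both replicates list a summit, replicate 1 was a median 1.43 times replicate 2. A gene's window ran from 2 kb (2000 bp) upstream of its annotated 5′ end to its 3′ end.

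Of the 10 genes, 3 had a thresholded summit in the window, 1 each: the Dishevelled gene mig-5, at signal 2975, and the beta-catenin genes wrm-1, at 66.0, and sys-1, at 48.7. Among all nuclear protein-coding genes 14.0% had one. All 3 summits also lay in the promoter window of fixed length, from 1000 bp upstream to 200 bp downstream of the 5′ end, where 9.85% of all genes had one. With 10 genes, 3 of 10 is a description and was not tested. The count rested on weak regions apart from mig-5, the one member with a summit in the upper 50% of thresholded regions, where 8.15% of all genes had one. It came to 2, mig-5 and sys-1, when the window began 500 bp upstream, where 9.96% of all genes had one.

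The sequences under 3 members' strongest regions are printed because they carry the strongest region (mig-5), the higher in signal of the thresholded regions at the beta-catenin genes among the 10 (wrm-1) and the strongest region below the threshold (lit-1). Each is 300 bases of the ce11 assembly, read 5′ to 3′ on the gene's own strand, with the summit at base 151. The mig-5 window is chrII:8185065-8185364 on the minus strand, the wrm-1 window is chrIII:5721921-5722220 on the plus strand and the lit-1 window is chrIII:13717586-13717885 on the plus strand. Capitals mark the TCF core CTTTGA and the 10 6-mers described after the sequences, on either strand.
mig-5: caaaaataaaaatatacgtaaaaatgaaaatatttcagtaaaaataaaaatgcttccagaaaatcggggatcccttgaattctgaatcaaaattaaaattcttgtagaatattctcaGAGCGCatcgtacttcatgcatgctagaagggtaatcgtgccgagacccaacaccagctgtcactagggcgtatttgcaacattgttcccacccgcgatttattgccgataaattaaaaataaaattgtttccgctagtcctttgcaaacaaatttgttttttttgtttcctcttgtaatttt
wrm-1: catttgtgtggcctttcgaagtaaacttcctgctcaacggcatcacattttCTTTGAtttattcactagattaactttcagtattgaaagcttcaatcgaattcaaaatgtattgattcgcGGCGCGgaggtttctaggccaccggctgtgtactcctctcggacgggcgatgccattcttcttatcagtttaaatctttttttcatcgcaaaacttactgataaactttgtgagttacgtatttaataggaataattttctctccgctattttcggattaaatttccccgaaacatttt
lit-1: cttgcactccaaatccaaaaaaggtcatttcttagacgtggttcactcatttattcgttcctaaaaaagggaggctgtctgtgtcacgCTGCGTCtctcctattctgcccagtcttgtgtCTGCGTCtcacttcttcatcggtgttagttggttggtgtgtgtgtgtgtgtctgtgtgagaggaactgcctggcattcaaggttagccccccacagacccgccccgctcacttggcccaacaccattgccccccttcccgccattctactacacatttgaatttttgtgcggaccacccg

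The 10 6-mers were those with the highest ratio between windows of 101 bp around the thresholded summits and windows of the same length centred 300 bp to each side, among 6-mers in at least 10% of the former: ACGCGC came first, followed by GCGCAC, then by ACGCAG, next by AGCGCG, then by CGCGCC, next by GACGCA, then by GCGCCA, next by GAGCGC, then by CGCGCA and lastly by GGCGCA, each counted with its reverse complement. Several overlap one another, such as ACGCAG and GACGCA. At least 1 of them was present in 75.7% of the 300 bp windows at thresholded summits and in 30.8% of the side windows. The 6-mers were picked for this contrast at these same summits, so the direction of the difference was set by the choice. At mig-5 the match was GAGCGC from base 118, which 19.8% of thresholded windows hold. At wrm-1 it was CGCGCC, read in reverse as GGCGCG from base 122 (16.2% of thresholded windows). At lit-1 ACGCAG and GACGCA overlapped in reverse as CTGCGTC, from base 89 and again from base 121. In all, 7 of the 10 members' strongest regions held at least 1 of the 10, and those of dsh-1, bar-1 and apr-1 held none. The regions of mig-5, wrm-1 and sys-1 are among those used to pick the 6-mers, while those of dsh-2, pop-1, lit-1 and pry-1 are not. All matches at sys-1, and the pop-1 match (AGCGCG from base 256), lay outside the central 101 bp where the 6-mers were picked. GACGCA, found in 27.2% of thresholded windows and 7.24% of side windows, was in 4 of the members' regions, at dsh-2, sys-1 (from bases 24 and 63), lit-1 and pry-1. The TCF core CTTTGA, in 13.1% of thresholded windows and 20.9% of side windows, was in 3, at wrm-1, apr-1 and pry-1. The 300 bp windows at thresholded summits had a median GC content of 39.3%, with 50% of them between 34.7% and 45.3%. The window at mig-5 had 34.0%, that at wrm-1 38.0%, that at lit-1 51.3% and that at bar-1 22.7%. The strongest regions of 7 of the 10 members are below the threshold, and no share was counted over such regions. The members' counts therefore have no background of the same kind. These matches are letters in a window and describe no measured site.

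Of the 3 Dishevelled genes, mig-5 stood far above dsh-1 and dsh-2 in signal. mig-5 (WBGene00003241, chromosome II, 8182323 to 8185023, minus strand) had one of the strongest regions of the whole data set, at rank 12 with signal 2975. The rank was 12 in replicate 1 as well, with signal 1815, and 12 in replicate 2, with signal 1170.1. The region covered 8185014 to 8185419, and its summit lay between genes, 191 bp upstream of mig-5. The replicates' own summits were 187 and 191 bp upstream. Only 0.120% of protein-coding genes had a stronger region in their windows. The summit is shared: it also lay 229 bp upstream of cct-1, a chaperonin subunit gene that reads the other way, so the deposited regions do not tell which of the 2 genes the binding belongs to. Away from this summit the mig-5 window held no other region in the list of both replicates or in replicate 1, and 3 weak ones in replicate 2, of which the strongest, at signal 15.4, lay in a coding exon of cct-1.

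dsh-2 and dsh-1 lay below the threshold with nearly equal signals. At dsh-2 (WBGene00001102, chromosome II, 5078233 to 5081174, minus strand) the strongest region had rank 3251 and signal 34.3, 178 bp upstream of the gene. Replicate 1 had a summit in it at rank 2076 and signal 29.2, and replicate 2 one at rank 7098 and signal 11.6. The strongest summit of replicate 2 in the dsh-2 window was another one, 551 bp upstream in a coding exon of C04G6.4, at rank 2355 and signal 19.9, so the replicates had their highest summits at different places. At dsh-1 (WBGene00001101, chromosome II, 5214400 to 5225384, minus strand) the strongest region had rank 3294 and signal 34.1, with a summit 1231 bp upstream that falls in the noncoding RNA genes C34F11.16 and C34F11.17, annotated on opposite strands. Replicate 1 had it at rank 2127 and signal 28.6, whereas replicate 2 listed no summit in that region and had its highest in the window 927 bp upstream, at rank 9484 and signal 10.4. The gene has 8 annotated transcripts, and a weaker region, at signal 20.1, had its summit 81 bp upstream of an internal transcript's 5′ end and 4592 bp into the gene. Replicate 1 had it at rank 6026 and replicate 2 did not list it. Another weak region, at signal 16.4, had its summit 81 bp upstream of the annotated 5′ end of dsh-1. Both replicates listed a summit in that region, at rank 20713 in replicate 1 and rank 10421 in replicate 2.

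**Figure D1:**
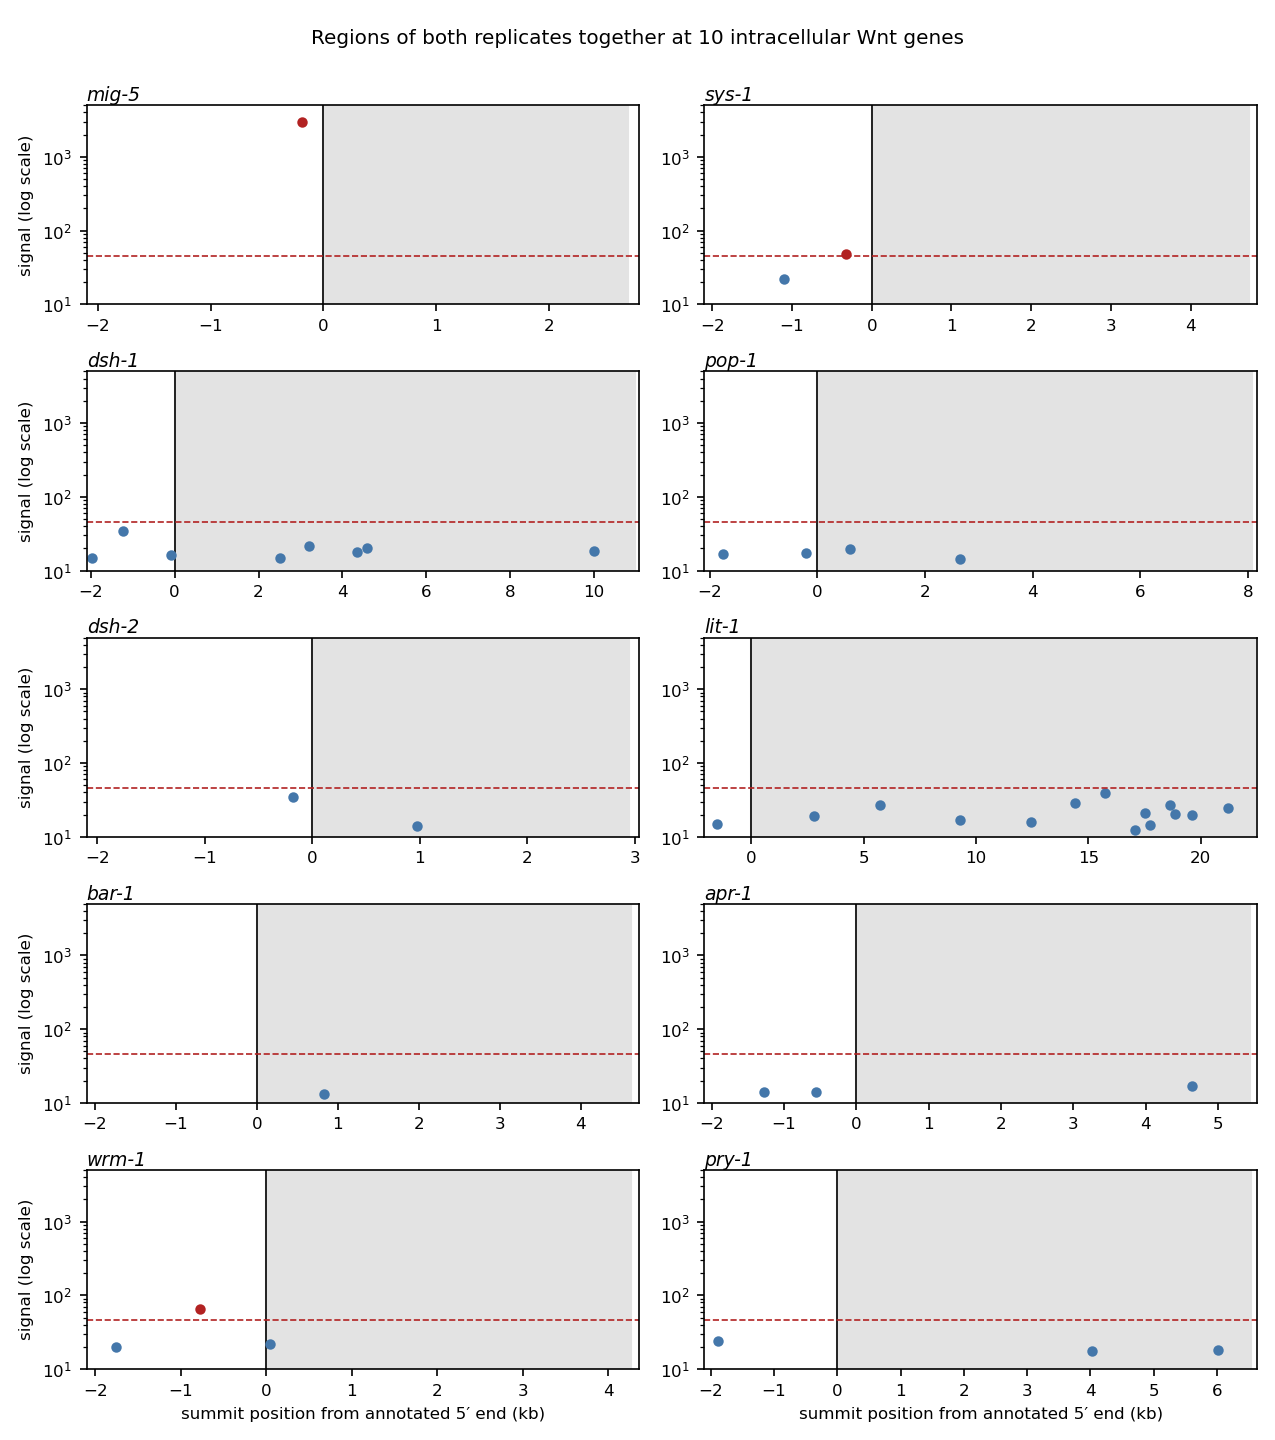
Signal (log scale, no unit) of every region in the list of both replicates together, by the position of its summit from the annotated 5′ end in kb, for the 10 genes. Grey marks the gene, the dashed line the lowest thresholded signal of 45.8, and red the thresholded regions. mig-5, wrm-1 and sys-1 each have 1 red point upstream of the gene, and that of mig-5 stands at 2975, while the points of the other 7 genes are below the line.

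Of the 3 beta-catenin genes among the 10, wrm-1 and sys-1 had a thresholded region upstream, and bar-1 did not. Over all genes 14.0% had one in the window. The other asymmetry branch members, lit-1 and pop-1, had none. wrm-1 (WBGene00006943, chromosome III, 5722850 to 5727115, plus strand) had its summit 779 bp upstream, at rank 1440 and signal 66.0. No other protein-coding gene's window held it. In replicate 1 it had rank 1740 and signal 33.8, and in replicate 2 rank 1095 and signal 35.6. The ratio of replicate 1 to replicate 2, 0.948, was thus lower than at 87.7% of thresholded regions. A weaker region of wrm-1, at signal 22.2, had its summit 41 bp into the gene, in a coding exon, and was listed at rank 26800 in replicate 1 and, 64 bp into the gene, at rank 8197 in replicate 2.

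sys-1 (WBGene00006379, chromosome I, 9980063 to 9984794, minus strand) was the closest to the threshold of the 3, at rank 2025 of 2182. Its summit lay 328 bp upstream, between genes, and in no other protein-coding gene's window. Replicate 1 placed it at rank 1715 with signal 34.0 and replicate 2 at rank 4540 with signal 13.9, with summits 330 and 333 bp upstream. The position was therefore alike in both replicates, while the ratio of 2.45 was higher than at 92.4% of thresholded regions. A second region, 1103 bp upstream at signal 21.9, was also listed in both replicates, at rank 17420 in replicate 1 and 7607 in replicate 2.

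bar-1 (WBGene00000238, chromosome X, 7166005 to 7170625, minus strand) had the weakest signal of the 10. Its single listed region, in an intron 824 bp into the gene, had rank 26215 and signal 13.2, where the lowest signal in the list was 12.3. Replicate 1 listed it at rank 23090 with signal 9.02, and replicate 2 had no listed region in the whole window. The nearest thresholded summit lay 11193 bp upstream of bar-1.

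The TCF gene pop-1 (WBGene00004077, chromosome I, 2822243 to 2830311, minus strand) had 4 weak regions. The strongest, in an intron 612 bp into the gene, had rank 10929 and signal 19.6, and was listed in replicate 1 (rank 8927, signal 13.8) and not in replicate 2. The replicates had their highest pop-1 summits elsewhere: replicate 1 at 1799 bp upstream (rank 7221, signal 15.0) and replicate 2 at 140 bp upstream (rank 5008, signal 13.3), inside the noncoding RNA gene W10C8.14. The median signal of all 30000 regions was 17.2, and the 4 pop-1 regions lay on both sides of it, from 19.6 (rank 10929) to 14.2 (rank 22834).

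lit-1, the Nemo-like kinase gene (WBGene00003048, chromosome III, 13701991 to 13724404, plus strand), had the strongest region below the threshold among the 10. It ranked 2663 with signal 39.1 and a −log10 q-value of 2.55, against 3.63 at the thresholded regions of mig-5, wrm-1 and sys-1. The value of 3.63 was the same at signal 2975 (mig-5) and at 48.7 (sys-1), so it did not follow the signal there. The summit of the lit-1 region was 15745 bp into the gene, in an intron, but 229 bp upstream of the 5′ end of a shorter annotated transcript. Replicate 1 listed it at rank 2143 with signal 28.5 and replicate 2 at rank 3119 with signal 16.8, so that the first 2182 include it in replicate 1 only. lit-1 is the longest of the 10 genes, at 22414 bp, and held 14 regions in the list of both replicates, 16 in replicate 1 and 17 in replicate 2. Introns held 12 of these in each list.

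The Axin and APC genes, whose products are scaffolds of the complex that restrains beta-catenin, had regions below the threshold. At pry-1, the Axin gene (WBGene00004202, chromosome I, 14172828 to 14179360, minus strand), the strongest region had rank 6620 and signal 24.1, with its summit 1888 bp upstream. Replicate 1 had a summit in it, 1962 bp upstream at rank 3183 and signal 21.8. Replicate 2 had none in it, and its single pry-1 summit was 1615 bp upstream, at rank 3112 and signal 16.8. At apr-1, the APC gene (WBGene00000156, chromosome I, 8050037 to 8055475, plus strand), the strongest region had rank 15508 and signal 17.0, in an intron 4647 bp into the gene. The highest apr-1 summits of the replicates were upstream instead, at 565 bp in replicate 1 (rank 3557, signal 20.6) and at 1074 bp in replicate 2 (rank 6746, signal 11.8), where the window of K04G2.7 also holds them.

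**Figure D2:**
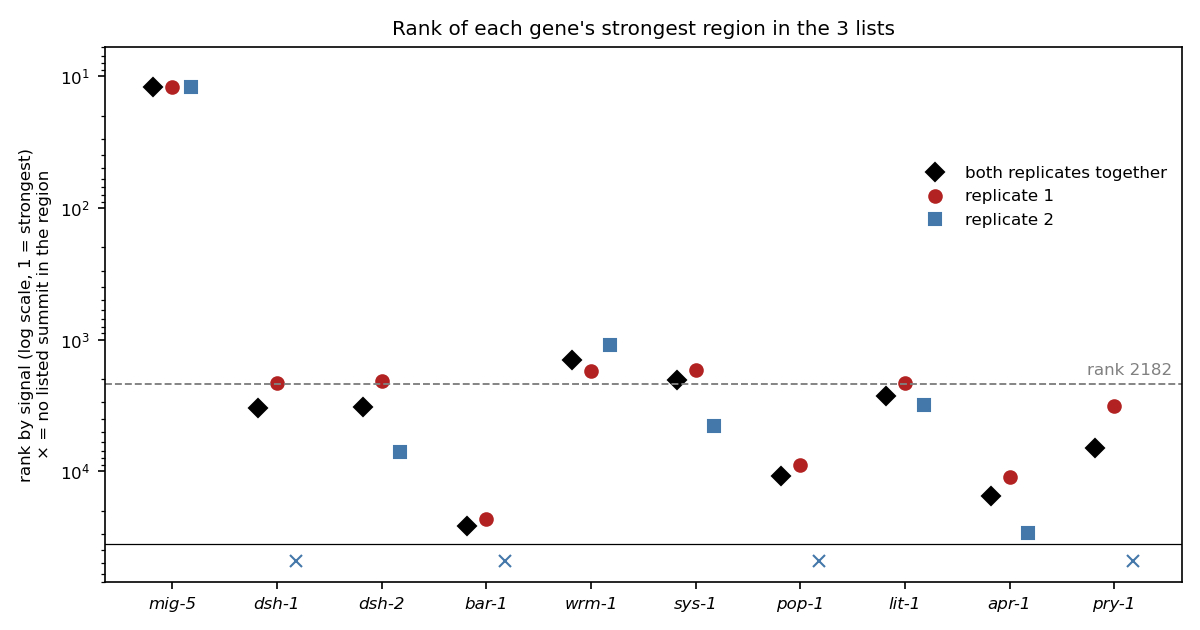
Rank by signal (log scale, 1 at the top) of each gene's strongest region in the list of both replicates together (diamonds), and of the strongest summit inside that region in replicate 1 (circles) and replicate 2 (squares); the dashed line is rank 2182 and a cross marks a replicate with no listed summit there. The 3 marks of mig-5 coincide at rank 12, wrm-1 is above the line in all 3 lists, and dsh-1, bar-1, pop-1 and pry-1 have a cross for replicate 2.

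The replicates gave different counts of members near the threshold. Among the 2182 strongest regions of replicate 1, 6 of the 10 genes had a summit, namely mig-5, wrm-1, sys-1, dsh-2, dsh-1 and lit-1, whereas among the 2182 strongest of replicate 2 only mig-5 and wrm-1, 2 genes, did. The shares over all protein-coding genes were 13.7% in replicate 1 and 13.7% in replicate 2. The regions of dsh-2, dsh-1 and lit-1 ranked 2076, 2127 and 2143 in replicate 1, close to the end of such a list. Of the members' 10 strongest regions, 6 held a listed summit of both replicates: all 3 thresholded ones and those of dsh-2, lit-1 and apr-1. Over the whole data 98.7% of thresholded regions and 30.9% of the regions below the threshold did so. The threshold is itself one on reproducibility, so the high share among thresholded regions is no separate result. The 30.9% covers all regions below the threshold, whereas the members' regions are the strongest of each gene.

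All 10 genes had at least 1 region of the 30000 in their window, against 63.0% of all protein-coding genes. Their windows were longer than most, with a median of 7.09 kb against 4.03 kb over all genes, and part of that list is background. Per kb of window the 10 genes held 0.442 regions and all genes 0.308. Without lit-1 the value was 0.395. In the promoter window of fixed length, 7 of the 10 had a listed region, against 38.8% of all genes; bar-1, lit-1 and pry-1 had none. The median of the members' strongest signals was 34.2. That of the 26 other Wnt pathway genes described below was 23.0, and that over all genes was 15.6. In these medians a gene without a listed region counts as 0, and all 10 members had one. They were not adjusted for window length, and the median window of the 26 other Wnt genes was 5.71 kb. In the promoter window of fixed length, the median strongest signal was 16.9 for the members and 0 over all genes. In order of strongest signal the genes were mig-5, wrm-1, sys-1, lit-1, dsh-2, dsh-1, pry-1, pop-1, apr-1 and bar-1. A stronger region was present at 10.2% of all genes for wrm-1, 13.2% for sys-1, 16.2% for lit-1 and 59.2% for bar-1. The order below mig-5 was not the same in the replicates: in replicate 1 the highest of these was sys-1, at 34.0 against 33.8 at wrm-1, and in replicate 2 sys-1 had 13.9 against 19.9 at dsh-2. Apart from mig-5, wrm-1 and sys-1, the nearest thresholded summit was 11193 bp (bar-1) to 58260 bp (lit-1) from the 5′ end.

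Of the 41 regions in the members' windows in the list of both replicates, 24 lay in introns, 14 between protein-coding genes, 2 in UTRs and 1 in a coding exon. The window of lit-1 alone held 14 of the 41, most of them in introns of that long gene. The 3 thresholded ones were all between genes. Places were not counted over all regions of the lists, so these counts show no excess of any place at these genes.

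The other genes of the pathway were taken from a list of 27, of which 26 were found by symbol and imb-4 was not. The list groups them loosely under roles such as ligand, secretion, receptor, kinase and cofactor. A thresholded summit lay in the window of 6 of the 26 (14.0% of all genes, as above) and in the promoter window of 2, cbp-1 and par-5 (9.85% of all genes). None of the 5 Wnt ligand genes had one. lin-44, cwn-1 and cwn-2 had no region in the list of both replicates, where 63.0% of all genes had at least 1. In the replicates' own lists lin-44 had a region in each, cwn-1 in replicate 2 and cwn-2 in replicate 1. The axin-like gene axl-1, not a ligand gene, also had no region in the list of both replicates and had some in each replicate's own list. With so few genes, these counts are a description. Upstream in the pathway, mom-1, a Porcupine gene needed for Wnt secretion, had a strong region in an intron 3445 bp into the gene (rank 70, signal 670.4). It ranked 62 in replicate 1, with signal 439, and 101 in replicate 2, with signal 225. Among the 7 genes listed under the receptor role, a label that here takes in vang-1, only the Frizzled gene mom-5 had a thresholded summit (signal 77.7). It lay in a UTR at the gene's far end, 3940 bp from its 5′ end.

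Inside the cell, kin-19, the casein kinase I alpha gene, had a thresholded summit 1138 bp upstream (signal 63.7), and gsk-3, mom-4, tap-1 and axl-1 had none in their windows. The beta-catenin gene hmp-2, which acts in cell adhesion, had one at signal 118, which lay 1368 bp upstream of hmp-2 but 188 bp upstream of K05C4.7. par-5, a 14-3-3 gene that acts in POP-1 export, had summits 183 and 744 bp upstream, at signals 47.4 and 53.4, both also in the window of M117.3. cbp-1, the acetyltransferase gene of the CBP family, had summits 909 and 139 bp upstream. The first, at signal 2019, was the strongest among the other Wnt genes, with rank 18 in replicate 1 and 17 in replicate 2, and the second had signal 81.8. unc-37, the Groucho corepressor gene, had its strongest region below the threshold, at signal 37.5. With each summit assigned to just 1 gene, the one whose 5′ end lay nearest and at most 5000 bp away, cbp-1 and kin-19 kept theirs among these genes, while mig-5, wrm-1 and sys-1 did among the 10.

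**Figure D3:**
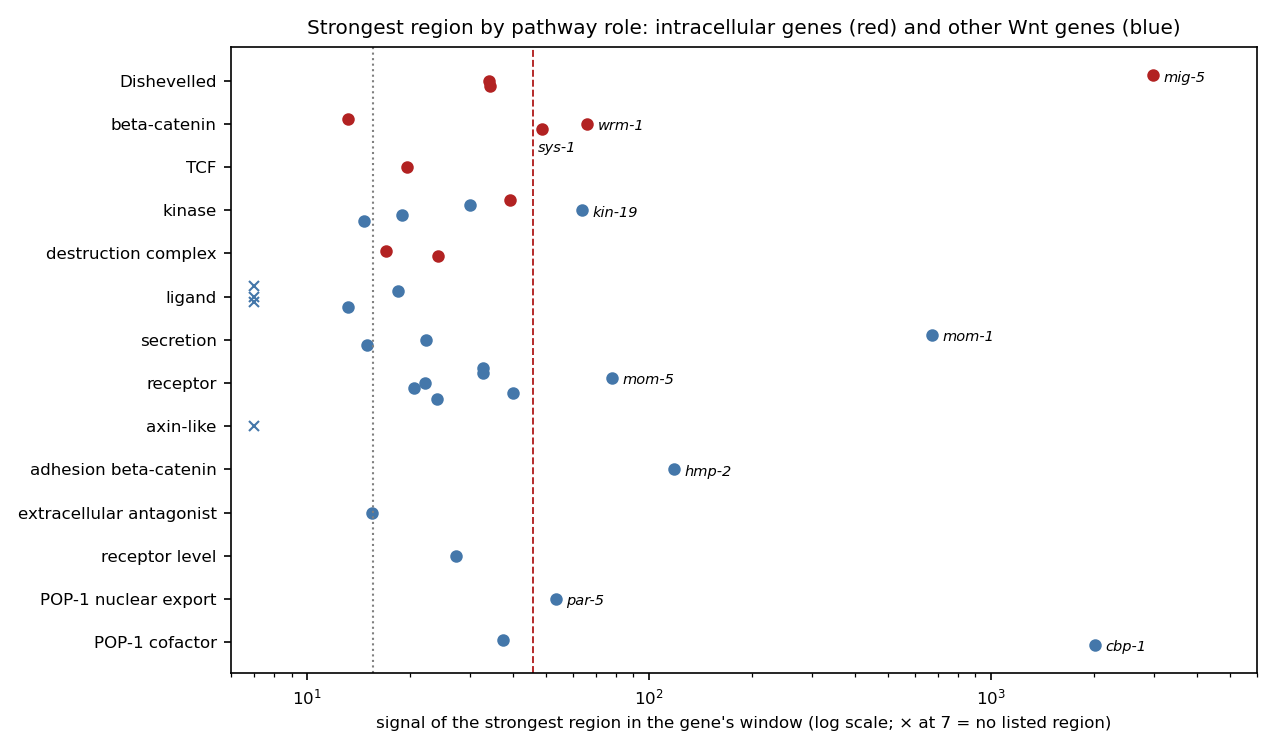
Signal (log scale, no unit) of the strongest region in each gene's window, in the list of both replicates together, by listed pathway role. The 10 intracellular genes are in red and the 26 other Wnt genes in blue. The dashed line is the lowest thresholded signal, 45.8, the dotted line the median over all protein-coding genes, 15.6, and a cross a gene with no listed region. mig-5, cbp-1 and mom-1 stand apart at 2975, 2019 and 670.4, and no ligand gene reaches the dashed line, which 14.0% of all genes do.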

How the data were processed

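The authors deposited lists of ChIP-seq regions with a summit and a signal value, made for each replicate and for both together on ce11, with a control, per the labels and the deposited lists of files. They thresholded these by IDR. The sources used here do not name the aligner or peak caller. The authors' deposited signal was used for ranks and description, and the deposited −log10 q-value for description. The control and the ce10 lists were not analysed here.

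Gene positions were taken from Ensembl release 115 (WBcel235, which is the same assembly as ce11), and sequence from its RefSeq copy. A summit was assigned to every gene whose window held it. A replicate's value at a region is its strongest listed summit inside it. Shares over all genes are descriptions, and no test was run. The members and lists were chosen with earlier results of these data known. The text names the 10 members, genes sharing their thresholded summits and other Wnt genes with one. The other genes it names, at weaker regions or without a thresholded summit, and the 10 6-mers in place of the single highest one, were chosen after values were seen. Alternatives were other windows, overlap by at least 1 bp, the nearest 5′ end, the upper 50% of regions and each replicate's 2182 strongest regions. Assignment was checked on simulated summits. Python 3.11.15, numpy 2.4.6, pandas 2.3.3 and matplotlib 3.10.9 were used.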

Additional observations from a re-analysis of the deposited data

How the results depend on the processing

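The 3 members with a thresholded summit were the same 3 in the promoter window of fixed length, with the 5′ end of any transcript, with 5000 bp upstream, with overlap in place of the summit and with the nearest 5′ end. The count was 2 with 500 bp upstream, where wrm-1 was lost, and 1 in the upper 50% of thresholded regions. With 1 replicate left out it ranged from 2 to 6. For the other Wnt genes the count of 6 became 2 in the promoter window, 2 with the 5′ end of any transcript, 4 with 500 bp upstream, 2 with the nearest 5′ end and 3 in the upper 50% of regions, and rose to 8 with 5000 bp upstream, where gsk-3 and axl-1 were gained; with 1 replicate left out it ranged from 6 to 7. The share of all genes was 8.15% in the upper 50% of regions and 9.50% to 19.4% otherwise. The rank of the sys-1 region ranged from 1715 to 4540 when 1 replicate was left out. The rank of mig-5 stayed at 12, and that of wrm-1 ranged from 1095 to 1740. Except where a window or list was shortened, the cause of these shifts was not tested. No paired analysis was possible because the data form 1 group. Depth is unknown, so no limit of detection can be given for the genes without a thresholded region.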
